A study of Homo sapiens with 12 samples.

Results

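The comparison described here is the effect of ovarian cancer ascites on CAOV3 cells averaged over 2 drug states: 6 libraries with ascites were set against 6 without it, and bezafibrate (yes or no) was a covariate, so that all 12 libraries of the series entered 1 model. CAOV3 is an established human cell line labelled as high grade serous ovarian epithelium, wild type, kept in DMEM with 10% fetal bovine serum. Ascites is peritoneal fluid of patients with this cancer. Bezafibrate belongs to the fibrates, which activate the fatty acid sensors called PPARs. The 6 libraries without ascites were 3 of control cells given DMSO, for which the label lists no time, and 3 of cells given 200 uM bezafibrate for 16 hours. The 6 with ascites were 3 of cells given 10% ascites with DMSO for 16 hours and 3 of cells given 10% ascites with 200 uM bezafibrate for 16 hours, called the combination below. DMSO is named for the groups without the drug only, so each drug state compares groups with the same naming of solvent. All groups came from 1 line in serum-containing medium. The labels state neither whether replicates were separate cultures nor whether the ascites came from 1 person or a pool, so the p-values measure the spread between these libraries. Averaging over both states answers which small changes appear at 6 against 6 that 3 against 3 could not separate from the spread.

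Cells take up cholesterol in lipoprotein particles and also make it from acetyl units. When membrane sterol is plentiful, INSIG proteins hold the transcription factors SREBP-1 and SREBP-2 in the endoplasmic reticulum, and transcription of the synthesis and uptake genes falls. When sterol is scarce, the SREBPs are cut, enter the nucleus and raise the same genes, including INSIG1 itself. Iron uptake has its own switch: iron-regulatory proteins bind stem-loops in the 3′ untranslated region of the transferrin receptor mRNA when iron is low and protect it from decay.

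With ascites the transferrin receptor gene and part of the sterol and fatty acid synthesis genes fell by small amounts. On the higher side 8 genes rose by at most 13.1%, among them CCN1, CCN2 and 2 keratins. At 6 against 6, edgeR's quasi-likelihood test called 39 of 12470 genes (0.313%), with a Benjamini-Hochberg adjusted p under 0.05 as the threshold: 31 fell (0.249%) and 8 rose (0.0642%). The changes ran from a fall of TFRC by 30.6% to a rise of CCN1 by 13.1%, and 6 of the 39 genes differed by more than 1.2-fold. An unadjusted p under 0.05 was found for 497 genes on the lower side (3.99%) and 402 on the higher side (3.22%). In these bulk samples, fewer cells of a kind and less RNA per cell cannot be told apart.

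Total counts per library were between 11831093 and 18762759, and biological variation between replicates was 2.99% (common coefficient). Principal component 1 (37.0% of the variance) separated the libraries by drug. On component 2 (9.88%) combination replicate 3 lay at -22.4 while the others lay between -4.37 and 9.84. Of 4679 genes averaging 50 CPM or more (CPM, counts scaled to library size by TMM), 291 differed by more than 0.2 log2 units between that library and its 2 replicates, against 4 to 102 genes for any other library. Results are therefore given with it and, where they move, without it. Keratins 7, 8, 18 and 19, EPCAM, CDH1 and CLDN4 were present in all libraries, whereas the serous markers PAX8, WT1, MUC16, WFDC2 and MSLN were at or near 0 and SOX17 had 0 counts. Of 11 white blood cell markers 7 had 0 counts in all libraries, PTPRC and CD3E among them, and the summed level was 75.5 to 101.2 CPM with ascites and 74.6 to 97.0 CPM without, mostly CD68 (mean 83.4 CPM). Summed fibroblast and endothelium markers were at 159.8 to 193.6 CPM with ascites and 167.2 to 197.3 CPM without, mostly LUM (mean 171.8 CPM). Mesothelial markers were at 1.99 to 4.25 and 2.32 to 2.89 CPM, and red cell and platelet markers at 0.673 to 1.41 and 0.543 to 1.09 CPM. None of the tested markers of these 4 classes was called.

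The gene with the lowest p was TFRC (ENSG00000072274.13; GRCh38 chr3:196027183-196082189, minus strand), which encodes the transferrin receptor that brings iron into the cell. TFRC stood at 712.3, 710.1 and 709.1 CPM in the control libraries and at 476.7, 476.7 and 484.3 CPM in those with ascites. With bezafibrate it stood at 745.0, 741.5 and 740.5 CPM, and with both at 509.5, 522.3 and 557.2 CPM. Every library with ascites lay below every library without it. On the log2 scale the pooled change was -0.53 ± 0.021 (SE; edgeR adjusted p 2.27e-21), and without combination replicate 3 it was -0.55.

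The last exon of TFRC, exon 19 of 19 in the GENCODE v29 transcript, holds the stem-loops through which iron acts on this mRNA. They are shown because TFRC changed most among the 39 genes; a count of mRNA does not tell transcription from decay. A search of the whole transcript for the loop letters CAGTGN between paired arms found 4 elements of 29 bases, all in the 3′ untranslated region. A stem-loop with other loop letters or with unpaired arms would not be found. The 4 elements lie at chr3:196050979-196051007, chr3:196050575-196050603, chr3:196050510-196050538 and chr3:196050463-196050491 on the minus strand (GRCh38), with the loop in capitals.
TFRC element 1: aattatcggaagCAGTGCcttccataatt
TFRC element 2: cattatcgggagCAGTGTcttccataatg
TFRC element 3: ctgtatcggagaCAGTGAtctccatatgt
TFRC element 4: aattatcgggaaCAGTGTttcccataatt

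TFRC was the 1 gene called among the 17 tested of 20 iron genes, of which 10 were below 0 and whose median log2 fold change was -0.015, against -0.00045 over all genes tested. The ferritin subunits that store iron, FTH1 and FTL, were at -0.046 (edgeR adjusted p 0.497) and -0.015 (edgeR adjusted p 0.956). FBXL5, the iron-sensing subunit of a ubiquitin ligase, was at 0.16 (edgeR adjusted p 0.385), and the divalent metal transporter SLC11A2 at -0.10 (edgeR adjusted p 0.494). These 2 were named after their values were seen.

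**Figure D1:**
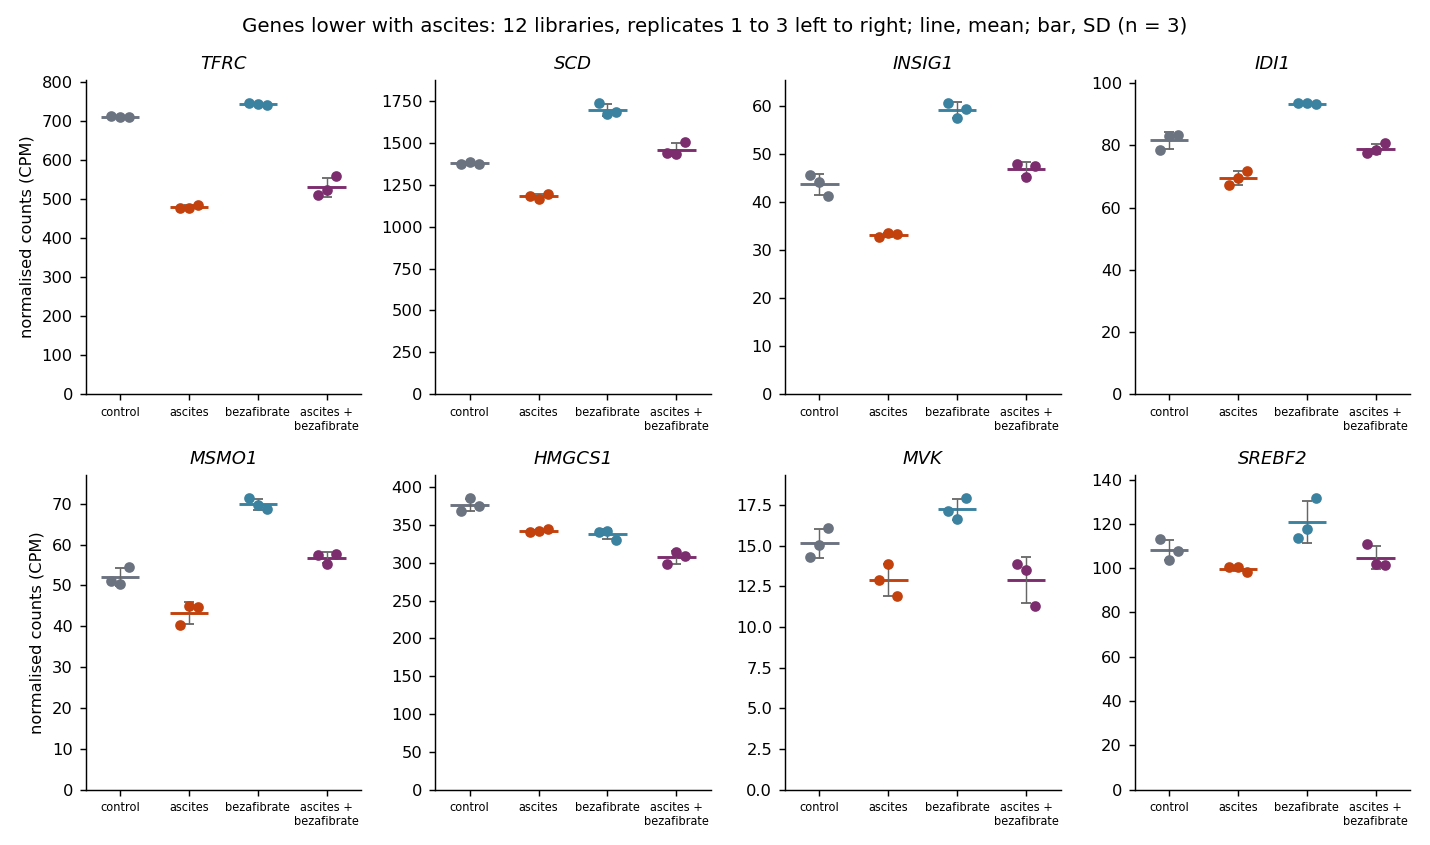
Normalised counts (CPM, linear axis from 0) of 8 genes called lower with ascites, in each of the 12 libraries; the line is the mean of 3 libraries and the bar 1 SD. In each panel the ascites points lie under the control points and the combination points under the bezafibrate points, while the 2 drug states can differ in level.

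Lipid synthesis is covered by 3 lists: 23 genes of sterol synthesis, 16 of sterol sensing and uptake, and 18 of fatty acid synthesis and desaturation. Of the 56 of these genes that could be tested, 19 were called lower and 0 higher, where the 56 make up 0.449% of all genes tested and 0.249% of all genes were called lower. Below 0 were 50 of the 56, against 50.3% of all genes, and 31 had an unadjusted p under 0.05 on the lower side and 0 on the higher. In both drug states 23 of the 56 had all 3 ascites libraries below all 3 libraries without it, which held for 0.738% of all genes.

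In sterol synthesis 11 of 23 genes fell and 19 were below 0, with a median log2 fold change of -0.12. The fall touched early and late steps. HMGCS1, which makes HMG-CoA, stood at 368.7, 385.3 and 375.3 CPM in control and at 341.0, 342.0 and 344.0 CPM with ascites, at 341.0, 341.9 and 330.0 CPM with bezafibrate and at 298.1, 314.5 and 308.8 CPM with both. The groups did not overlap within either drug state, and HMGCS1 fell by 9.09% (log2 fold change -0.14, SE 0.021, edgeR adjusted p 0.000137).

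Mevalonate kinase, MVK, was the least abundant of the 39 genes. It stood at 14.3, 15.1 and 16.1 CPM in control, 12.9, 13.9 and 11.9 CPM with ascites, 17.1, 16.7 and 17.9 CPM with bezafibrate and 13.9, 13.5 and 11.3 CPM with both, so that the highest library with ascites lay below the lowest without it. MVK fell by 20.1% (SE of the log2 value 0.067, edgeR adjusted p 0.0122). It shares 306 exon bases with MMAB on the opposite strand, so its size is uncertain. Summed, the pair was at -0.23 (edgeR adjusted p 0.00342), against -0.32 for MVK alone. IDI1, which isomerises the isoprenoid unit, stood at 78.5, 83.1 and 83.4 CPM in control, 67.4, 69.4 and 71.7 CPM with ascites, 93.6, 93.6 and 93.2 CPM with bezafibrate and 77.5, 78.5 and 80.7 CPM with both. It fell by 15.3% (log2 fold change -0.24, SE 0.031, edgeR adjusted p 4.34e-06).

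The enzymes that build and finish the sterol ring followed. FDFT1, squalene synthase, changed by -9.72%, SQLE, squalene epoxidase, by -12.9%, and LSS, which closes the ring, by -10.2%. MSMO1, which removes methyl groups from the ring, stood at 51.2, 50.4 and 54.7 CPM in control, 40.2, 45.0 and 44.8 CPM with ascites, 71.4, 69.8 and 68.6 CPM with bezafibrate and 57.4, 55.2 and 57.7 CPM with both, a fall of 17.9% (log2 fold change -0.28, SE 0.037). DHCR7, a late reductase, changed by -10.9%, and SC5D, a late desaturase, by -9.10%. CYP51A1 was at -0.11 with an edgeR adjusted p of 0.0655, and without combination replicate 3 it was called, which brought the list to 12. TM7SF2 (0.0096), LBR (0.012), PMVK (0.059) and HSD17B7 (0.19) were the 4 members above 0, and none of them was called.

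Some regulators of sterol synthesis fell as well. INSIG1, the sterol-dependent retention factor of the SREBPs, stood at 45.6, 44.2 and 41.2 CPM in control and 32.8, 33.6 and 33.3 CPM with ascites, and at 60.6, 57.5 and 59.4 CPM with bezafibrate and 47.9, 45.3 and 47.4 CPM with both. It fell by 22.2% (log2 fold change -0.36, SE 0.039, edgeR adjusted p 5.75e-08). The ascites libraries lay below without overlap in both drug states, and INSIG1 was higher with bezafibrate, so that the control and combination libraries overlapped.

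SREBF2, which encodes SREBP-2, was called at 6 against 6 only: its values ran from 103.6 to 131.6 CPM without ascites and from 98.3 to 110.7 CPM with it, a fall by 10.6% (SE of the log2 value 0.034, edgeR adjusted p 0.0164). SREBF1 was at -0.11 (edgeR adjusted p 0.146), SCAP, the SREBP escort, at 0.017 (edgeR adjusted p 0.969), and STARD4, a sterol carrier, at -0.29 (edgeR adjusted p 0.0655). Of the 16 sensing and uptake genes 3 fell and 14 were below 0, with a median of -0.085. Without combination replicate 3 the lysosomal cholesterol exporter NPC1 made it 4.

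In fatty acid synthesis 5 of 17 tested genes fell and all 17 were below 0, with a median log2 fold change of -0.077. SCD, the desaturase that makes oleate, stood at 1372, 1387 and 1372 CPM in control, 1181, 1165 and 1192 CPM with ascites, 1736, 1669 and 1682 CPM with bezafibrate and 1439, 1434 and 1502 CPM with both. It fell by 14.2% (log2 fold change -0.22, SE 0.017, edgeR adjusted p 1.71e-11). ACACA, the carboxylase that commits acetyl-CoA to fatty acids, was between 162.2 and 171.7 CPM without ascites and between 143.0 and 158.7 CPM with it, with no overlap, and fell by 9.72%. FADS1 and FADS2, the desaturases of polyunsaturated fatty acids, changed by -9.99% and -12.1%, and ACSL3, which activates fatty acids, by -7.62%. FASN, the synthase itself, was at -0.14 with an edgeR adjusted p of 0.0655, although its 6 values with ascites, 489.8 to 553.3 CPM, all lay below the 6 without it, 561.7 to 612.6 CPM. FASN was called in 7 alternatives, among them DESeq2 (DESeq2 adjusted p 0.00138), the average of the effects within the 2 drug states (edgeR adjusted p 0.0135) and the fit without combination replicate 2 (edgeR adjusted p 0.0032). FADS1 and FADS2 share 490 exon bases on opposite strands, and since the strandedness of the counting is not given in the sources used here, their separate values are uncertain. Summed, the pair was at -0.16 (edgeR adjusted p 9.91e-06).

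The promoters of the called genes were searched for 4 short motifs in the 250 bases before the start site, on both strands, in the RefSeq promoter table (GRCh38.p14), which matched 26 of the 39 genes. The CCAAT box, the letters CCAAT bound by NF-Y, stood in 16 of 22 lower genes, and in 41.8% of the 10038 tested genes and 32.0% of all 35116 windows in the table. The sterol regulatory element TCACNCCAC stood in 1 of 22, SREBF2, and in 1.17% of tested genes. The E-box CACGTG stood in 2 of 22 and 11.3%, and the GC box GGGCGG in 22 of 22 and 75.1%. A match is a description of these letters and not a binding site. Windows that lie upstream of the annotated gene are printed for 4 genes that fell, to show how the motifs sit; capitals mark CCAAT or its complement ATTGG and, in SREBF2, the sterol regulatory element. They are at chr22:41832960-41833015 (plus strand) for SREBF2, chr10:100346992-100347063 (plus) for SCD, chr10:1049220-1049346 (minus) for IDI1 and chr21:46228908-46228936 (minus) for LSS.
SREBF2: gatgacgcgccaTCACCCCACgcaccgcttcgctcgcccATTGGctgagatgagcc
SCD: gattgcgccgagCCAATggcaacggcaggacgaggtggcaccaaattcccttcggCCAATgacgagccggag
IDI1: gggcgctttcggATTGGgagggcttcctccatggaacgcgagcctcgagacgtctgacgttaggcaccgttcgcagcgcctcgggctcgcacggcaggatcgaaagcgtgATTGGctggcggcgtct
LSS: cgcggcgctctgATTGGttgcgtgggcgt

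In the SREBF2 window the sterol regulatory element begins 133 bases before the start and the CCAAT box 106 bases before it. SCD has a pair of CCAAT boxes that begin 229 and 186 bases before its start, and IDI1 a pair at 215 and 117 bases.

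The other 12 genes that fell lay outside the lipid lists. LPIN1, a phosphatidate phosphatase, was between 50.5 and 58.1 CPM without ascites and between 43.3 and 49.5 CPM with it, with no overlap (log2 fold change -0.22, SE 0.043, edgeR adjusted p 0.00703). SLC5A3, the myo-inositol transporter, fell by 11.1% and was the 1 gene called of 11 osmolyte genes. Its groups overlapped with bezafibrate, and it shares 273 exon bases with MRPS6 on the same strand, so its size is uncertain. Summed, SLC5A3 and MRPS6 were at -0.12 (edgeR adjusted p 0.0291), against -0.17 for SLC5A3 alone. NDRG1, a hypoxia- and stress-responsive gene, fell by 17.4% (edgeR adjusted p 0.0475) and was the 1 gene called of 21 in the hypoxia and glycolysis list, whose median was -0.019. The remaining genes, named after their values were seen, were PTPRJ, a receptor phosphatase, at -0.14, PEG10 at -0.11, the thyroid hormone receptor THRA at -0.18, the corepressor HR at -0.18, the mRNA export adaptor ALYREF at -0.15, the hypoxia-inducible factor EPAS1 at -0.094, TP53INP2 at -0.17 and the cytosolic isocitrate dehydrogenase IDH1 at -0.12. ALYREF is uncertain: summed with ANAPC11, which overlaps it on the opposite strand, it was at -0.10 (edgeR adjusted p 0.179). THRA shares 263 exon bases with NR1D1 and PEG10 shares 219 with SGCE, also on opposite strands, so their sizes are uncertain too. Summed, they were at -0.17 (edgeR adjusted p 0.0162) and -0.11 (edgeR adjusted p 0.0168).

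**Figure D2:**
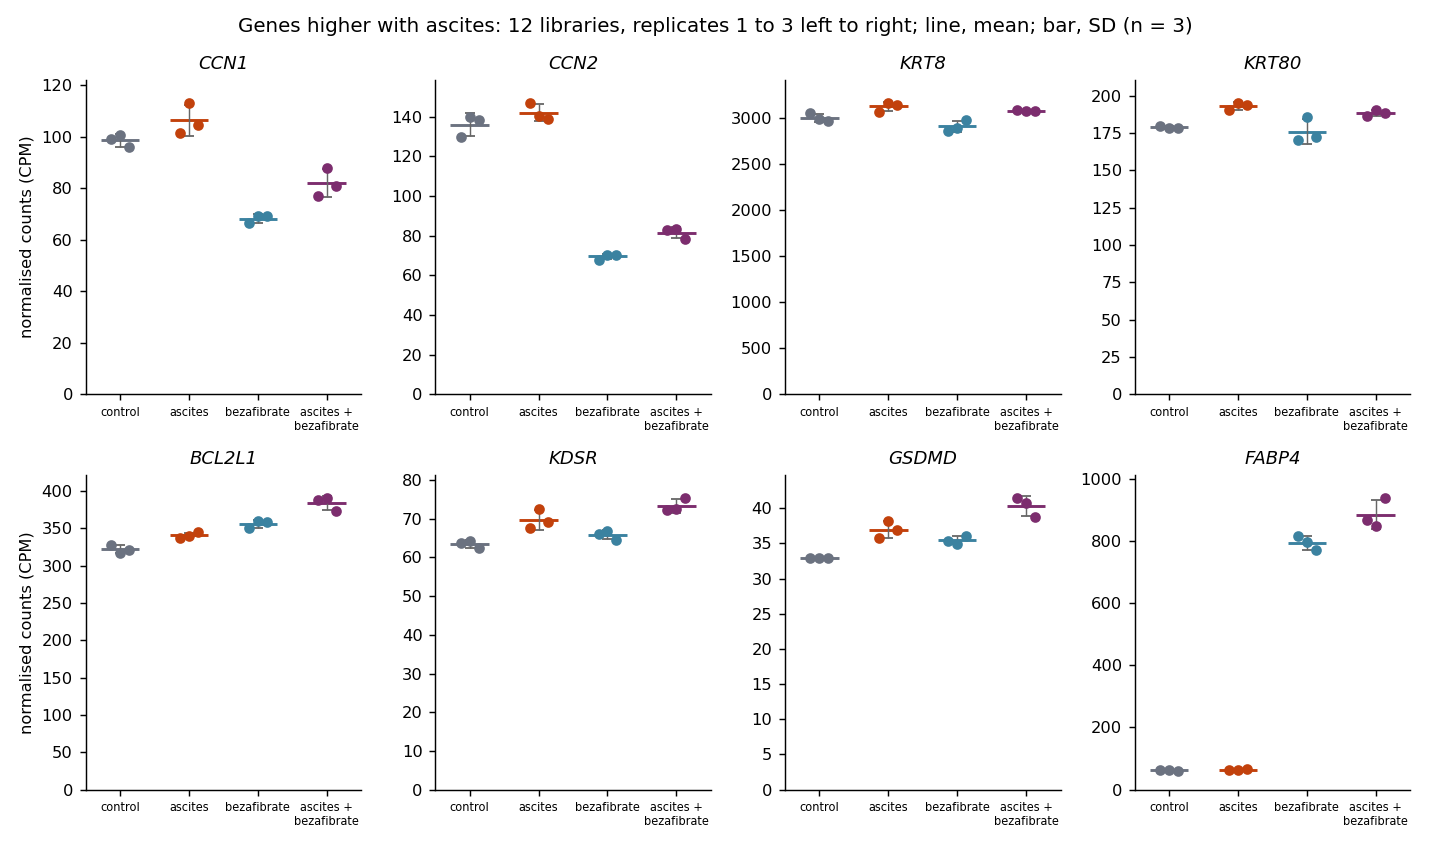
Normalised counts (CPM, linear axis from 0) of the 8 genes called higher with ascites, in each of the 12 libraries; the line is the mean of 3 libraries and the bar 1 SD. The differences within a drug state are small beside the level, and those of FABP4 and CCN2 are smaller than the difference between the drug states.

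On the higher side, targets of YAP and SRF, transcription factors that answer to cell tension and to lipids in serum, gave 2 calls among 20 tested genes. Of the 20, 17 were above 0 and 8 had an unadjusted p under 0.05 on the higher side, with a median log2 fold change of 0.063. Over all genes tested 0.0642% were called higher, 6194 of 12470 were above 0, and 3.22% had such an unadjusted p on the higher side. CCN1, a secreted matrix protein, stood at 99.1, 100.6 and 95.9 CPM in control, 101.5, 113.0 and 104.4 CPM with ascites, 66.3, 69.1 and 69.3 CPM with bezafibrate and 77.1, 87.7 and 80.8 CPM with both. The ascites libraries were higher without overlap in either state, and CCN1 rose by 13.1% (log2 fold change 0.18, SE 0.036, edgeR adjusted p 0.00958). CCN2, its relative, rose by 9.99% (log2 fold change 0.14, SE 0.032, edgeR adjusted p 0.0455) and was called in 5 of the 12 fits without 1 library; its control and ascites libraries overlapped, at 129.6 to 139.9 and 138.9 to 146.8 CPM. ANKRD1 was at 0.23 with an SE of 0.072 and was not called (edgeR adjusted p 0.475), whereas the average of its effects within the 2 drug states, at 0.25, was called (edgeR adjusted p 0.0289). TPM1, a tropomyosin, was at 0.090 (edgeR adjusted p 0.0746) and was called without combination replicate 3.

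Keratin 8, KRT8, gave the smallest change of the 39. It stood at 3056, 2993 and 2967 CPM in control, 3071, 3166 and 3149 CPM with ascites, 2867, 2898 and 2979 CPM with bezafibrate and 3092, 3078 and 3075 CPM with both, a rise of 4.93% (log2 fold change 0.069, SE 0.016, edgeR adjusted p 0.0395). All 6 values with ascites lay above the 6 without it, by a narrow margin between 3056 and 3071 CPM. KRT18, its filament partner, was at 0.072 (edgeR adjusted p 0.0575), and KRT7 at 0.083 (edgeR adjusted p 0.0655). KRT19, with a mean of 656.1 CPM, did not share the rise, at -0.0022 (edgeR adjusted p 0.996). KRT8 and KRT18 share 525 exon bases on opposite strands, and their sum was at 0.070 (edgeR adjusted p 0.0271). KRT80 was between 169.9 and 185.4 CPM without ascites and between 186.1 and 195.0 CPM with it, and rose by 7.44% (edgeR adjusted p 0.0475).

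BCL2L1, which encodes the survival protein BCL-XL, rose from 316.9 to 327.7 CPM in control to 337.7 to 344.6 CPM with ascites, and from 349.9 to 360.0 CPM with bezafibrate to 373.2 to 390.4 CPM with both (log2 fold change 0.096, SE 0.021, edgeR adjusted p 0.0164). KDSR, an enzyme of sphingolipid synthesis, was between 62.4 and 66.9 CPM without ascites and between 67.6 and 75.3 CPM with it (log2 fold change 0.14, SE 0.032, edgeR adjusted p 0.0307). GSDMD, the pore-forming gasdermin, rose by 13.1% (log2 fold change 0.18, SE 0.040, edgeR adjusted p 0.031), and its groups did not overlap in either state. FABP4, a fatty acid carrier and PPAR target, stood at 62.7, 62.1 and 60.0 CPM in control, 64.3, 63.5 and 65.2 CPM with ascites, 815.9, 796.9 and 771.9 CPM with bezafibrate and 867.4, 849.7 and 937.9 CPM with both. It rose by 9.19% with ascites (log2 fold change 0.13, SE 0.026, edgeR adjusted p 0.0122) and was the 1 gene called of 27 PPAR targets, whose median was -0.0013. Without combination replicate 3 the log2 fold change of FABP4 was 0.097 (edgeR adjusted p 0.0104), and its call was lost without bezafibrate replicate 2 (edgeR adjusted p 0.0605), without bezafibrate replicate 3 (edgeR adjusted p 0.0901) and with a trend on transcript length removed (edgeR adjusted p 0.366). PDK4, ANGPTL4 and CPT1A, the first of that list, were at -0.035, 0.077 and -0.0029 and were not called (edgeR adjusted p 0.936, 0.556 and 0.997).

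**Figure D3:**
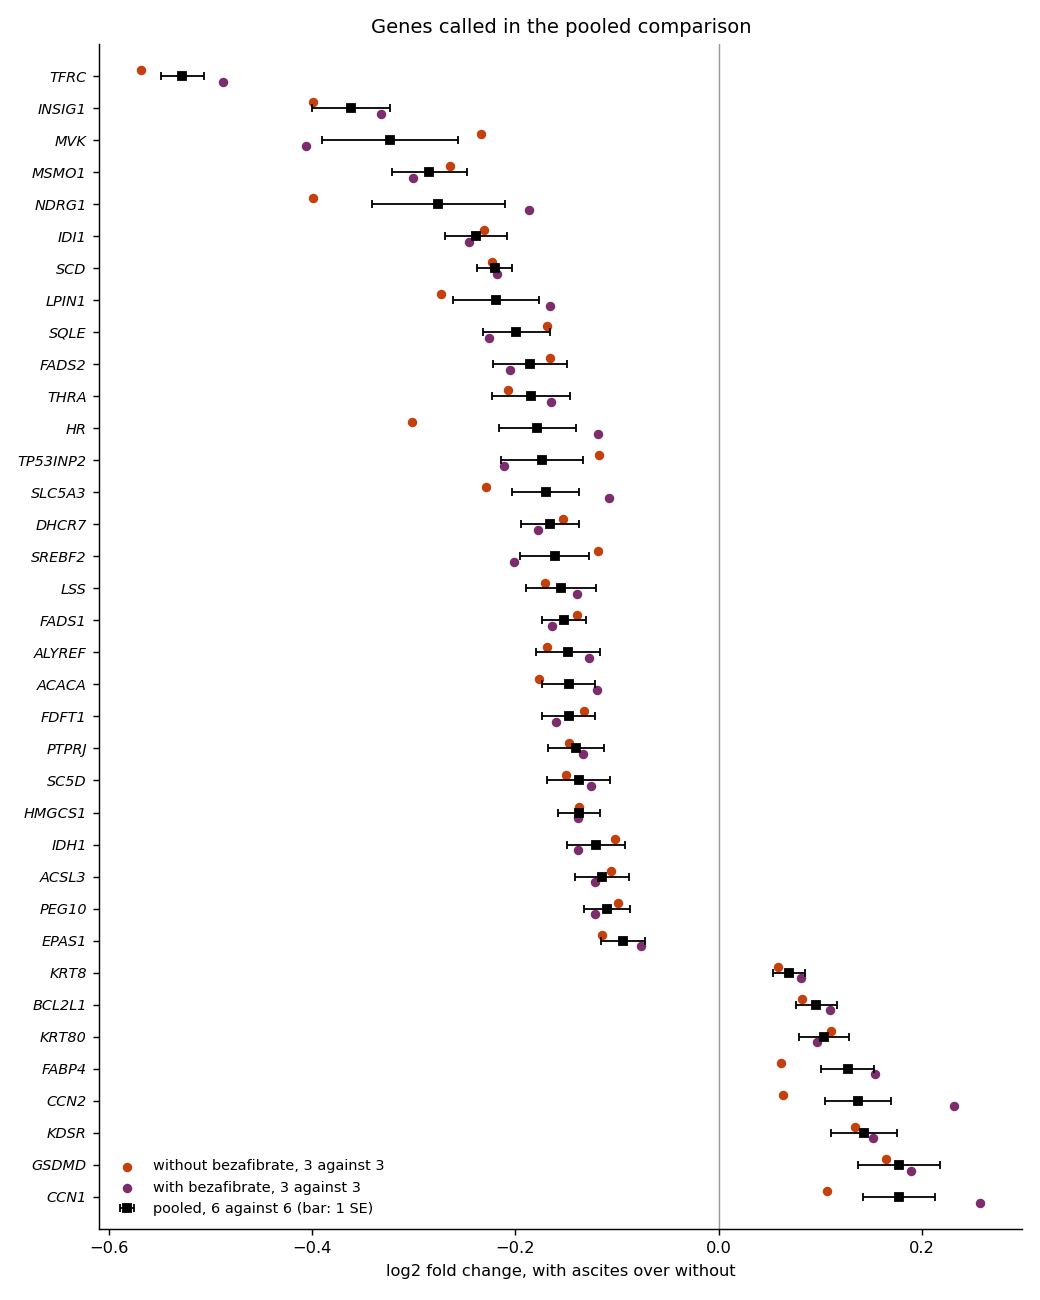
Log2 fold change (with ascites over without) of 36 of the 39 genes called at 6 against 6; squares are the pooled value with 1 SE, and circles the values within each drug state at 3 against 3. All circles lie on the same side of 0 as their square, and those of CCN1, CCN2 and HR lie furthest from each other relative to their errors.

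Within the drug states, the same libraries taken 3 against 3 gave 11 calls without bezafibrate (0.0882% of genes) and 16 with it (0.128%), and 6 genes were called in both, among them TFRC, SCD, INSIG1, IDI1 and MSMO1. Of the 39 pooled calls 23 were called in neither state, 18 lower and 5 higher, with absolute log2 fold changes from 0.069 to 0.32. Of these 23 genes, 9 belonged to the lipid lists, among them DHCR7, FDFT1, FADS2, MVK, SREBF2, LSS, SC5D and ACSL3. The 5 on the higher side were BCL2L1, KDSR, GSDMD, KRT8 and KRT80. Of the 12 fits without 1 library, they were called in 8, 4, 3, 4 and 2, in that order. On the lower side this ran from 1 fit for EPAS1 to all 12 for several genes, among them LPIN1, DHCR7, FDFT1 and FADS2. For genes with a mean of 50 to 200 CPM the median SE of a log2 fold change was 0.033 at 6 against 6, and 0.047 and 0.046 within the states. Of the 39 genes 21 lay in that range, and 0 were called under 5 CPM, where the median SE was at least 0.17. The pooled test lost 5 genes called in a state: RAB43 without the drug, and ANKRD1, FASN, TREX2 and 1 gene without a symbol with it.

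All 39 genes had the same sign in both states, which share no library, though the pooled call was made from the same libraries. In both states 34 of them had no overlap between libraries with and without ascites, 27 lower and 7 higher. Over all genes tested, 92 (0.738%) were lower without overlap in both states and 48 (0.385%) were higher. The 39 were picked from these same libraries, so their lack of overlap is partly built in. For an interaction of ascites with the drug edgeR called 0 genes, limma voom 0 and DESeq2 1; the lowest adjusted p in edgeR was 0.98. At an unadjusted p under 0.05 there were 445 genes (3.57%). Among the 39, 3 had one: CCN2 (unadjusted p 0.00841), HR (unadjusted p 0.0214) and CCN1 (unadjusted p 0.0331). The ascites change of CCN2 was 0.064 without the drug and 0.23 with it, that of CCN1 0.11 and 0.26, and that of HR -0.30 and -0.12.

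Many of the genes that fell with ascites had higher levels with bezafibrate in the same model, which shares all libraries with the ascites term. The drug term called 28.7% of all genes tested, and 20 of the 31 lower genes, 18 of them higher with the drug; HMGCS1 and SLC5A3 were the 2 lower. Of the 19 lipid genes that fell 14 were called for the drug, 13 higher. The 28.7% of all genes was not split by direction. The median log2 fold change for the drug was -0.0047 over all genes tested. It was 0.094 for sterol synthesis, 0.12 for sterol sensing and uptake, and 0.10 for fatty acid synthesis and desaturation. The log2 fold change for the drug was 0.46 for INSIG1, 0.41 for MSMO1 and 0.30 for SCD. Of the 8 genes higher with ascites 5 were called for the drug, CCN1 and CCN2 lower (-0.46 and -0.88) and BCL2L1, GSDMD and FABP4 higher. With no drug covariate TFRC was the 1 gene called. LPIN1 and FADS2, not called for the drug (edgeR adjusted p 0.671 and 0.617), lost their calls as well, and the cause was not tested.

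**Figure D4:**
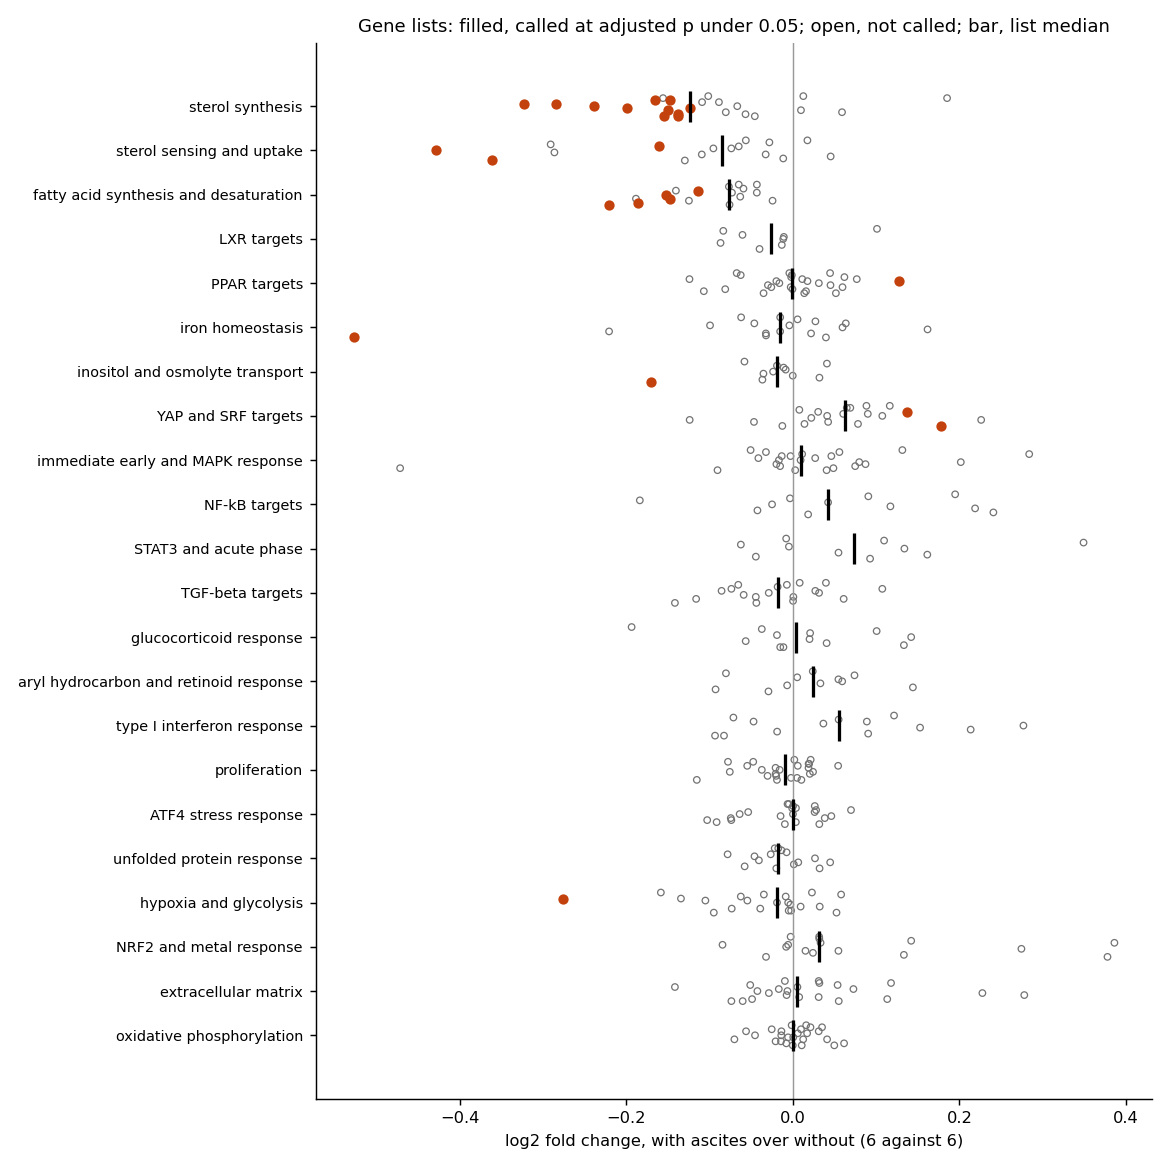
Log2 fold change (with ascites over without, 6 against 6) of every tested member of the 22 gene lists; filled points were called, open points were not, and the bar is the list median. The 3 lipid lists lie mostly below 0 and the YAP and SRF list mostly above it, while 14 lists hold no called gene.

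No gene was called in 14 of the 22 lists. These covered LXR targets, immediate early and MAPK response, NF-kB, STAT3 and acute phase, TGF-beta, glucocorticoid, aryl hydrocarbon and retinoid, type I interferon, proliferation, ATF4, unfolded protein response, NRF2 and metal response, extracellular matrix and oxidative phosphorylation. The medians of the large lists were near 0: 0.0004 for oxidative phosphorylation, -0.00045 for ATF4 and -0.0091 for proliferation. For the list of STAT3 and acute phase genes, of which 10 of 18 could be tested, the median was 0.074 with no unadjusted p under 0.05 in either direction. EGR1 was at -0.091 (edgeR adjusted p 0.925), NFKBIA at 0.018 (edgeR adjusted p 0.972), SOCS3 at 0.093 (edgeR adjusted p 0.936) and MKI67 at -0.12 (edgeR adjusted p 0.208). Of the proliferation genes MKI67 was called by DESeq2 (DESeq2 adjusted p 0.0361) and without combination replicate 2 (edgeR adjusted p 0.00952), and TOP2A without combination replicate 3, at -0.077 (edgeR adjusted p 0.0266).

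**Figure D5:**
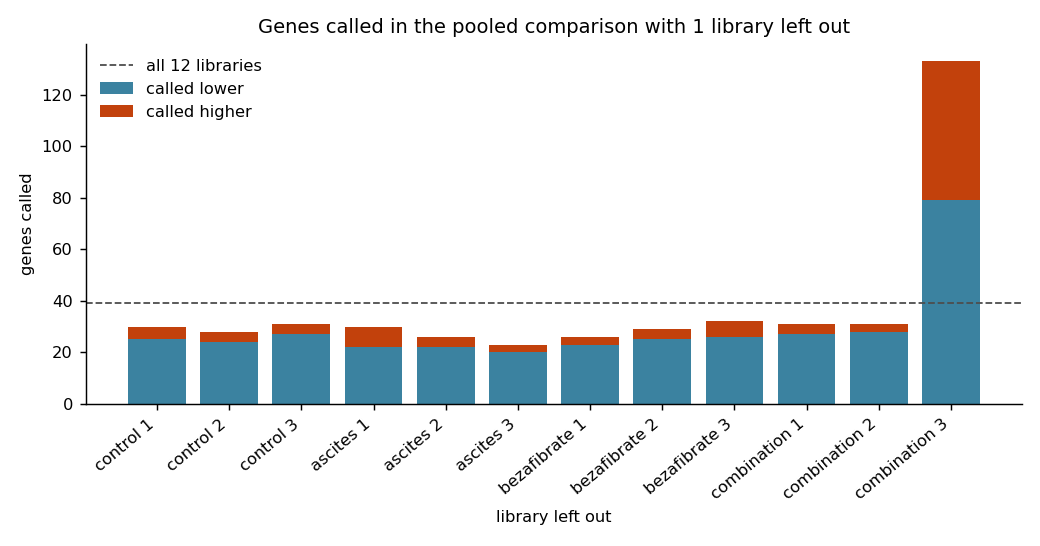
Genes called in the pooled comparison when 1 of the 12 libraries is left out (bars, lower and higher calls stacked from 0), against the 39 called with all libraries (dashed line). Leaving out combination replicate 3 raised the count to 133, and each other omission lowered it.

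The number of calls depended on combination replicate 3. Without it the test called 133 of 12574 genes, 79 on the lower side (0.628%) and 54 on the higher (0.429%), at a coefficient of variation of 2.40%. All 39 genes were called again, and the 94 others had the same sign with all 12 libraries, 87 of them with an unadjusted p under 0.05 there. Since the smaller fit uses only libraries of the full fit, this agreement is largely built in. Without combination replicate 3 the lipid lists held 23 called genes, with CYP51A1, NPC1, ACLY and ELOVL6 added. On the higher side KRT7 (0.098), KRT18, TPM1, FOSL1 (0.16) and the cytoplasmic actin ACTG1 were added. Without ascites replicate 3 the count was 23, and in the other 10 such fits it was between 26 and 32. In all 12 fits 18 of the 39 genes were called, 14 of them from the lipid lists together with TFRC, LPIN1, SLC5A3 and, as the 1 gene on the higher side, CCN1.

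Transcript length moved with the direction of change. The median longest transcript was 2736 bases for the 8 genes called higher, 4895 for the 31 called lower and 3685 for all tested genes with a length, and across 4677 genes with at least 50 CPM, which share the same libraries, Spearman's rho of length with the ascites change was -0.25. Single libraries sloped with length by -0.11 to 0.080 log2 units per 10-fold. With each library's trend on length removed, an alternative added after the data were seen, 46 genes were called, 37 of the 39 among them, and 20 lipid list genes were lower. FABP4 was then at 0.12 with an SE of 0.037 (edgeR adjusted p 0.366) and CCN2 at 0.13 with an SE of 0.032 (edgeR adjusted p 0.0626), close to their values of 0.13 and 0.14 before, and neither was called. TFRC was at -0.52 and SCD at -0.22. Of the 133 genes called without combination replicate 3, 42 were not called once the trend was removed.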

How the data were processed

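RNA selection, strandedness and annotation are not given in the sources used here. Whole-number read counts per gene were deposited by the authors for each of 12 libraries; per the submitters' processing notes the tools were Trimmomatic 0.39, STAR 2.7.9a, RSEM 1.3.3 and DESeq2 1.28.1 with GRCh38, with no role or order stated. Each table listed 19677 genes, 346 with an identifier in place of a symbol. Whether the counts are rounded RSEM estimates is not stated. Genes sharing exons on GENCODE v29 were checked by summing them.

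Genes were kept by filterByExpr (minimum count 10, minimum total 15), which left 12470, and removed 7207. edgeR 4.0.16 (R 4.3.3) fitted ascites and bezafibrate as additive terms to all 12 libraries with TMM scaling, robust quasi-likelihood and 9 residual degrees of freedom. A model with 1 mean per group gave the drug states and the interaction. Calls used Benjamini-Hochberg adjustment over all genes tested, at 0.05. CPM are TMM-scaled. The fit was tested on simulated data.

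Named genes were the called ones with a mean of at least 1 CPM, up to 15 in each direction by p, every called list member and the first 3 genes of each list; every other gene was named after its values were seen. Some called or listed genes are counted but not reported here by name. The comparison, the 22 lists (439 of 440 entries found) and this rule were chosen with earlier results of these data known. Replicate pairs within groups differed by more than sampling noise (chi-square per degree of freedom 1.44 to 4.45). Alternatives covered scaling (DESeq2 size factors, upper quartile), filters, DESeq2 1.42.0, limma 3.58.1 voom, the covariate, a replicate block, a stricter threshold, a test against a fold of 1.1 and leaving out each library. Summing overlapping genes, leaving out 2 combination libraries together and removing length trends were added after seeing the data.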

Additional observations from a re-analysis of the deposited data

How the results depend on the processing

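None of the 39 genes changed sign in any setting. In 10 other settings with the drug covariate, the same threshold and the same null, 26 of the 39 genes were called throughout, and 18 were also called in all 12 fits without 1 library; 30 single-gene calls were lost over the former and 136 over the latter. Among the first 3 genes of each list that were not called, FASN, ANKRD1, MKI67, SREBF1 and TOP2A gained a call in at least 1 setting. Other genes named here gained one too: CYP51A1, KRT7, KRT18, TPM1, CLDN7, LIPG, PRKCA and SELENOP, among others, were called without combination replicate 3. The pooled count was 38 with DESeq2 size factors, 38 with upper-quartile scaling, 38 with limma voom and 52 with DESeq2 (15 higher). Without a filter on low counts the calls numbered 69 pooled, 59 without the drug, 52 with it and 36 for the interaction; the cause was not tested. The pooled count was 19 at an adjusted p under 0.01 and 4 against a fold of 1.1 (TFRC, SCD and INSIG1 among them), both stricter by construction, and 1 with no bezafibrate covariate. limma voom called 7 genes without the drug and DESeq2 called 1 for the interaction; the cause was not tested. With 1 library left out the counts ran from 23 (without ascites replicate 3) to 133 (without combination replicate 3) pooled, from 3 to 24 without the drug, from 9 to 28 with it and from 0 to 3 for the interaction. Without combination replicates 1 and 3 together 62 were called, with genes that share exons summed 35, with length trends removed 46, and with length trends removed and without combination replicate 3, 119.

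Same-numbered libraries share only a number: over 4679 genes the correlation of their deviations from group means was between -0.35 and 0.35 (median 0.012, 18 pairs), and -0.40 to 0.43 (median -0.0013, 36 pairs) for other numbers. With the replicate number as a block, 38 genes were called pooled (33 of the 39), 8 without the drug, 14 with it and 1 for the interaction. Depth limited the low genes: under 1 CPM the median SE was 0.30, against 0.018 above 1000 CPM.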

Other observations

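Between adjusted p of 0.05 and 0.10 in edgeR's test lay 20 further genes, 13 lower and 7 higher. They include the tight junction gene CLDN7 at -0.23 (edgeR adjusted p 0.0501), the endothelial lipase LIPG at -0.23 (edgeR adjusted p 0.0511), the kinase PRKCA at -0.10 (edgeR adjusted p 0.0527) and the selenium transport protein SELENOP at 0.12 (edgeR adjusted p 0.0933), all chosen after their values were seen.

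Of the 94 genes called at 6 against 5 only, without combination replicate 3, 46 were higher and 48 lower. The higher ones include the ribosomal proteins RPS19 (0.081), RPS28 (0.13), RPS21 (0.11) and FAU (0.11) and the peroxidase GPX1 (0.17). The lower ones include the chromatin genes KMT2C (-0.13), ASH1L (-0.17), CHD7 (-0.12) and MGA (-0.14) and the aryl hydrocarbon receptor AHR (-0.10). The median longest transcript was 2421 bases for the higher genes and 7400.5 for the lower ones; the part of length in these calls beyond the trend removal was not tested.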
